A study of Homo sapiens with 4 samples.

Results

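Kruppel-like factors (KLF) are transcription factors that bind GC-rich and CACCC sequences through zinc fingers at their C-terminal end. The 10 genes described here are KLF2, KLF4, KLF5, KLF6, KLF7, KLF9, KLF10, KLF11, KLF13 and KLF16. They were chosen by symbol, with earlier results of these data known, and are not all of the 18 KLF genes present. The table of RNA levels has 38972 rows, in which all 10 were found. RNA was sequenced from HEK293T, an established human embryonic kidney line. The design held 2 libraries labelled as overexpressing Flag, the epitope tag that served as control, and 2 labelled as overexpressing RNase H1, the enzyme that cleaves the RNA of RNA-DNA hybrids. Both groups share the cell line and the labels name no other treatment. The sources used here do not give the vector, the duration or whether cells were cloned. The single comparison is RNase H1 against Flag.

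Members of the family differ mainly outside the DNA-binding domain, where they recruit different cofactors. KLF2, KLF4, KLF5, KLF6 and KLF7 are grouped as factors that can recruit histone acetyltransferases and often activate transcription. KLF9, KLF10, KLF11, KLF13 and KLF16 share an N-terminal motif that binds the SIN3 corepressor. Several of the genes are induced quickly by growth factors, shear stress, TGF-beta or hormones, and KLF4 and KLF5 are best known from epithelia and from pluripotent cells.

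The bases before the start site are shown for 4 genes. KLF4 is a member that rose and has GC boxes. KLF5 rose and KLF9 fell, both without GC boxes in the window shown. KLF16 has the most GC-rich window among the 9 members for which a window was taken, which leaves out KLF10. Each is the 250 bases before a RefSeq start on GRCh38.p14, read 5′ to 3′ along the gene. None of these windows overlaps an exon of its gene in GENCODE release 29. The KLF4 window nevertheless lies inside the span of KLF4 in that release, which begins further upstream, at 107490482. Capitals mark matches on either strand to the CACCC box (CACCC), the GC box (GGGCGG), the core of the cyclic AMP response element, CRE (TGACG), and the TATA box (TATAAA). Matches may overlap one another. The windows lie at chr9:107489770-107490019 (KLF4, minus strand), chr13:73054726-73054975 (KLF5, plus strand), chr9:70414658-70414907 (KLF9, minus strand) and chr19:1863580-1863829 (KLF16, minus strand).
KLF4: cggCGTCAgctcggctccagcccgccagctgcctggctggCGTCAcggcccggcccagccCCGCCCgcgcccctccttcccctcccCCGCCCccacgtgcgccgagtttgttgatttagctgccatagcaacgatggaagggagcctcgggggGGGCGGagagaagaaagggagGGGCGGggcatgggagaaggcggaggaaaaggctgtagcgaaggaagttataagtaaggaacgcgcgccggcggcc
KLF5: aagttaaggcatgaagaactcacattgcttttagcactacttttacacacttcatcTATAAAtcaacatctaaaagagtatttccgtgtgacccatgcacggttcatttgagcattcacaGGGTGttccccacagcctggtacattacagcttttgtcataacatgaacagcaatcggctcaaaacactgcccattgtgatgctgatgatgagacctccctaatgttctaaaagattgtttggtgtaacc
KLF9: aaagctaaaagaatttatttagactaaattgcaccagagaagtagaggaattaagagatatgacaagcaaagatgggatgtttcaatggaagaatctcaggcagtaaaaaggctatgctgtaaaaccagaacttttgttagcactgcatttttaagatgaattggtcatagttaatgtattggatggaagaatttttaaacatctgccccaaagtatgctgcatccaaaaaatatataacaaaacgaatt
KLF16: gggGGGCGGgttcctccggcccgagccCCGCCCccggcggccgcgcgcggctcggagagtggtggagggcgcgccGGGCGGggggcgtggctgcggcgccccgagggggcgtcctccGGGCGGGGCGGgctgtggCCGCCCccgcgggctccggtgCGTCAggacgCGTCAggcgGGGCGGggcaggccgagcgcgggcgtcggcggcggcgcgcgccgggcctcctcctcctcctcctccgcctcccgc

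The KLF4 window was 69.2% GC and held 4 GC boxes and 2 CRE cores. That of KLF16 was 86.4% GC and held 7 GC boxes and 2 CRE cores. The KLF5 window was 40.8% GC, with 1 CACCC box and 1 TATA box, and the KLF9 window was 32.4% GC and held none of these motifs. Over 34943 windows of the same length, the median GC content was 58%. The CACCC box was present in 54.7% of them, the GC box in 42.5%, the CRE core in 21.2% and the TATA box in 10.8%. KLF5 has a second RefSeq start whose window is 70.8% GC and holds 2 GC boxes, 2 CACCC boxes and 1 CRE core. That window overlaps exons in 213 of 250 bases and is not shown. These matches describe the letters of the windows and do not show binding.

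Levels are given in TPM, a length-normalised share of the library. They can therefore be set beside each other between genes. Since TPM does not carry the number of reads, the depth is unknown and values have no counting interval. In bulk RNA, fewer cells with a transcript and less of it per cell cannot be told apart. RNASEH1, the gene of the overexpressed enzyme, had 32.09 and 32.8 TPM with the label Flag and 29.93 and 29.67 TPM with the label RNase H1 (limma adjusted p = 0.260). The levels of this row thus do not bear out the label. Since the vector is not given, it is unknown whether an introduced copy would count to the row. Below, "with Flag" and "with RNase H1" mean the libraries so labelled. Among markers of embryonic kidney, the cadherin CDH2 had 24.32 to 27.57 TPM over the 4 libraries and the transcription factor LHX1 5.7 to 6.6 TPM. PAX8 did not exceed 0.47 TPM in any library. Of 7 endothelial markers 1 reached a mean of 1 TPM, the secreted protein gene EGFL7, and PECAM1 did not exceed 0.29 TPM.

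KLF4, KLF5 and KLF10 rose and KLF9 fell, by changes of 0.39 to 0.64 in size on the log2(TPM + 1) scale. The other 6 members did not pass the test. A gene was called at a Benjamini-Hochberg adjusted p under 0.05 in limma, a linear model with variances shared across genes, fitted to all 15651 genes whose average over the 4 libraries reached 1 TPM. All 10 members passed that minimum, KLF2 through its RNase H1 libraries alone. Of all tested genes 11.8% were called, 6.30% higher and 5.54% lower, against 3 higher and 1 lower of these 10. The groups did not overlap for 9 of the 10 members, and for 60.7% of all tested genes. The median difference was 0.27 over the members, KLF2 included, and 0.00 over all tested genes. Of the other KLF genes 3 were tested, with 0 called and a median of -0.24, so these figures do not describe the whole family. The labels do not state that replicates were separate cultures, so the p-values reflect only the spread between these libraries, which may be technical. An exact permutation test of 2 against 2 libraries cannot give a two-sided p below 0.333.

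**Figure D1:**
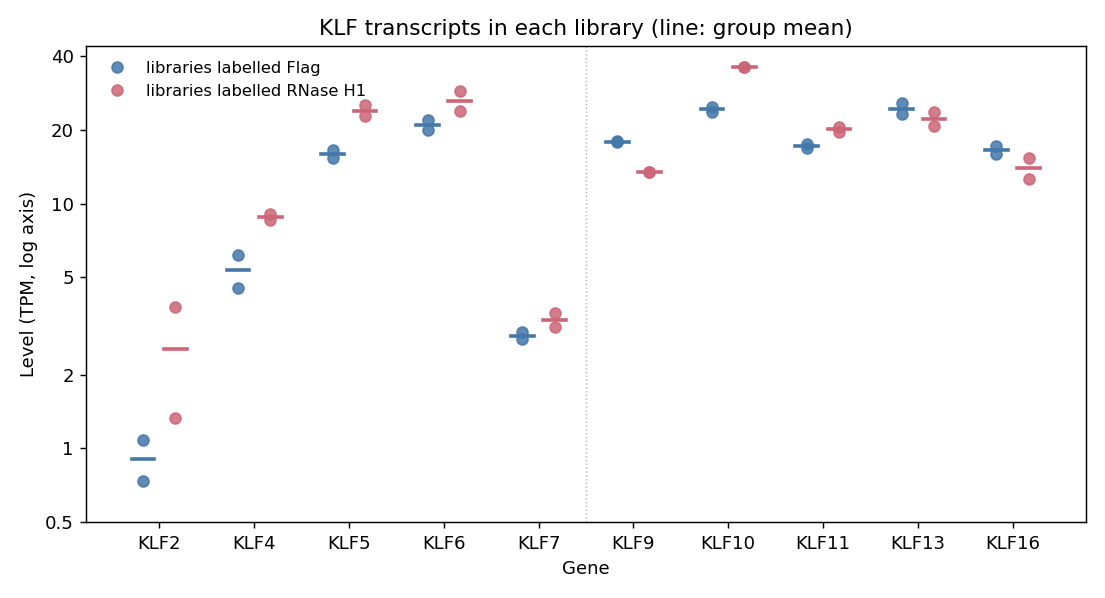
Level of each KLF gene in TPM on a log axis, with a point for each of the 4 libraries and a line at each group mean (n = 2). The 2 RNase H1 points lie above both Flag points for the 5 genes left of the dotted line and for KLF10 and KLF11, and below them for KLF9 and KLF16. KLF2 passed the minimum of 1 TPM through its RNase H1 libraries alone. Groups did not overlap, in either direction, for 60.7% of all tested genes.

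KLF4 and KLF5 rose among the factors that recruit acetyltransferases. KLF4 (chromosome 9, 107484852 to 107490482, minus strand, on GRCh38 as given by GENCODE release 29), one of the reprogramming factors and a regulator of epithelial differentiation, had 4.54 and 6.17 TPM in the Flag libraries and 9.05 and 8.6 TPM in the RNase H1 libraries. Both RNase H1 values were above both Flag values, and the Flag libraries differed more from each other than the RNase H1 libraries did. The mean was 5.36 ± 1.15 TPM against 8.83 ± 0.318 TPM (SD, n = 2), a ratio of 1.65, and the log2 difference was 0.64 ± 0.15 (SE, limma adjusted p = 0.0480). Scaling the columns by the median of ratios took KLF4 to the other side of the threshold (adjusted p = 0.0505) with a difference of 0.63.

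KLF5 (chromosome 13, 73054976 to 73077542, plus strand), a factor of proliferating epithelium such as that of intestinal crypts, had 16.47 and 15.28 TPM with Flag and 25.14 and 22.73 TPM with RNase H1. The groups were well apart, with 15.9 ± 0.841 TPM against 23.9 ± 1.70 TPM (SD, n = 2) and a ratio of 1.51. The log2 difference was 0.56 ± 0.09 (SE, 95% interval 0.35 to 0.78, limma adjusted p = 0.0204). Markers of squamous epithelium, where both genes are active, were scarce. Over 5 genes they summed to between 0.07 and 0.15 TPM in the Flag libraries and between 0.30 and 0.32 TPM in the RNase H1 libraries. KRT4 and KRT13 were listed at 0 in every library, and no gene of that list had a mean of 1 TPM.

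KLF2, the flow-responsive factor of endothelium and of resting lymphocytes, was the scarcest member and the least even between replicates. It had 0.74 and 1.08 TPM with Flag and 1.33 and 3.78 TPM with RNase H1. The groups did not overlap, yet RNase H1 replicate 2 stood far above replicate 1. The log2 difference was 0.81 ± 0.36 (SE, 95% interval -0.06 to 1.68, limma adjusted p = 0.183). Leaving out RNase H1 replicate 2 gave 0.29, and leaving out RNase H1 replicate 1 gave 1.33. It also depended on the pseudocount, with 1.24 at 0.1 TPM and 0.34 at 5 TPM, as its level is near the added 1. Endothelial markers summed to between 15.2 and 18.7 TPM with Flag and 14.1 to 14.2 TPM with RNase H1, most of it EGFL7.

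KLF6, a ubiquitous injury-response factor, did not pass. It had 20.02 and 21.88 TPM with Flag and 28.76 and 23.88 TPM with RNase H1, where replicate 1 was the higher. The log2 difference was 0.31 ± 0.11 (SE, 95% interval 0.05 to 0.57, limma adjusted p = 0.110), and it was 0.18 without RNase H1 replicate 1. KLF7, a factor of neurons and of fat cell precursors, was low in all libraries. Its 2.98 and 2.8 TPM with Flag and 3.56 and 3.13 TPM with RNase H1 were close, and the log2 difference of 0.16 ± 0.15 did not pass (SE, 95% interval -0.21 to 0.53, limma adjusted p = 0.521). All 5 genes of this group had higher values in both RNase H1 libraries, with 2 called. KLF2 passed the minimum of 1 TPM through its RNase H1 libraries alone, so the filter itself favours a positive difference for it. Groups did not overlap, in either direction, for 60.7% of all tested genes, and 11.8% were called. The summed level of the 5 genes was 44.75 and 47.21 TPM with Flag and 67.84 and 62.12 TPM with RNase H1. Among the 5 SIN3-binding members, described next, RNase H1 lay above Flag without overlap for 2 and below for 2, with 1 called higher and 1 lower. Their sum was 103.04 and 97.37 TPM with Flag and 103.49 and 108.15 TPM with RNase H1. The grouping by cofactor was made with the values known and was not tested.

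The SIN3-binding members went both ways. KLF10 (chromosome 8, 102648779 to 102655902, minus strand), also known as TGF-beta inducible early gene 1, had 24.7 and 23.73 TPM with Flag and 36.21 and 36.09 TPM with RNase H1. Replicates were nearly equal and the groups far apart, at 24.2 ± 0.686 TPM against 36.2 ± 0.0849 TPM (SD, n = 2). The log2 difference was 0.56 ± 0.07 (SE, 95% interval 0.40 to 0.72, limma adjusted p = 0.0116), the smallest adjusted p among the members. Its ratio of means, 1.49, was near the 1.51 of KLF5.

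KLF9 (chromosome 9, 70384597 to 70414624, minus strand), a hormone-responsive factor induced by glucocorticoids and thyroid hormone, was the member that fell. It had 18.02 and 17.77 TPM with Flag and 13.41 and 13.51 TPM with RNase H1. Both groups were tight and did not overlap, and the mean of 17.9 ± 0.177 TPM went to 13.5 ± 0.0707 TPM (SD, n = 2), a ratio of 0.752. The log2 difference was -0.39 ± 0.08 (SE, 95% interval -0.58 to -0.19, limma adjusted p = 0.0361).

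KLF11, the close relative of KLF10 that is also TGF-beta inducible, had 17.44 and 16.82 TPM with Flag and 20.56 and 19.66 TPM with RNase H1. The groups did not overlap, but the log2 difference of 0.22 ± 0.08 did not pass (SE, 95% interval 0.03 to 0.41, limma adjusted p = 0.117). An antisense gene, ENSG00000271787, overlaps exons of KLF11 and had 2.5 and 8.55 TPM with Flag and 8.99 and 8.73 TPM with RNase H1. The sources used here do not say whether counting used strand, so reads of such pairs may be shared and the values of KLF11 and KLF16 are uncertain.

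KLF13, a regulator of chemokine and cholesterol genes, was the one member whose groups overlapped. It had 25.63 and 23.15 TPM with Flag and 20.77 and 23.57 TPM with RNase H1 (log2 difference -0.13 ± 0.09, SE, 95% interval -0.36 to 0.10, limma adjusted p = 0.385). Correction for GC content made that difference -0.08. KLF16, a GC-box-binding repressor, had 17.25 and 15.9 TPM with Flag and 12.54 and 15.32 TPM with RNase H1. RNase H1 replicate 1 was the low one, and the log2 difference of -0.24 ± 0.12 did not pass (SE, 95% interval -0.52 to 0.04, limma adjusted p = 0.216). The difference became -0.08 after correction for GC content and -0.11 without RNase H1 replicate 1. At 67.8%, KLF16 had the highest GC content of its longest transcript among the 10, and KLF7 the lowest, at 43.8%. The antisense gene ENSG00000267125, which overlaps exons of KLF16, had 16.6 and 16.57 TPM with Flag and 17.95 and 6.24 TPM with RNase H1.

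**Figure D2:**
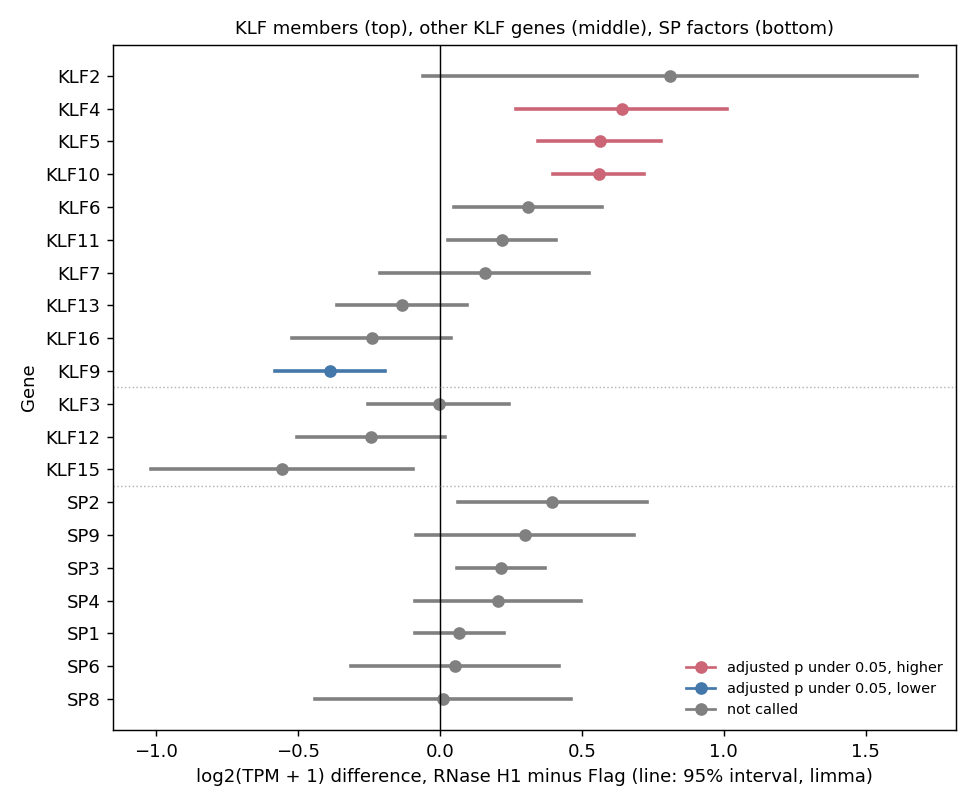
Difference in log2(TPM + 1) between RNase H1 and Flag for the 10 KLF genes, the 3 other tested KLF genes and the 7 tested SP factors, with 95% intervals from limma (4 libraries). Intervals lie above 0 for KLF4, KLF5, KLF10, KLF6, KLF11, SP2 and SP3 and below 0 for KLF9 and KLF15, and of these KLF4, KLF5, KLF10 and KLF9 (coloured) passed the adjusted threshold.

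The order of the levels differed between the groups. With Flag, KLF13 (24.4 ± 1.75 TPM, SD, n = 2) and KLF10 stood highest with overlapping values, followed by KLF6 and KLF9. KLF11, KLF16 and KLF5 came next, where each neighbouring pair overlapped, and then KLF4, KLF7 and KLF2, each apart from the next. With RNase H1, KLF10 was alone at the top. KLF6, KLF5 and KLF13 followed with overlapping neighbours. KLF11 then stood apart, KLF16 and KLF9 overlapped, KLF4 stood apart, and KLF7 and KLF2 overlapped at the bottom. KLF5 moved from rank 7 to rank 3 and KLF9 from rank 4 to rank 7.

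The 10 genes together summed to 147.79 and 144.58 TPM with Flag and to 171.33 and 170.27 TPM with RNase H1. KLF10 made up 16.6% of that sum with Flag and 21.2% with RNase H1, and KLF5 10.9% and 14.0%. KLF13 went from 16.7% to 13.0% and KLF9 from 12.2% to 7.88%. The increase in KLF10, 11.9 TPM, was the largest in absolute terms, and KLF5 added 8.06 TPM. All 18 KLF genes of the table summed to 184.23 and 180.97 TPM with Flag and to 205.3 and 200.9 TPM with RNase H1. The sums are descriptions and were not tested.

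**Figure D3:**
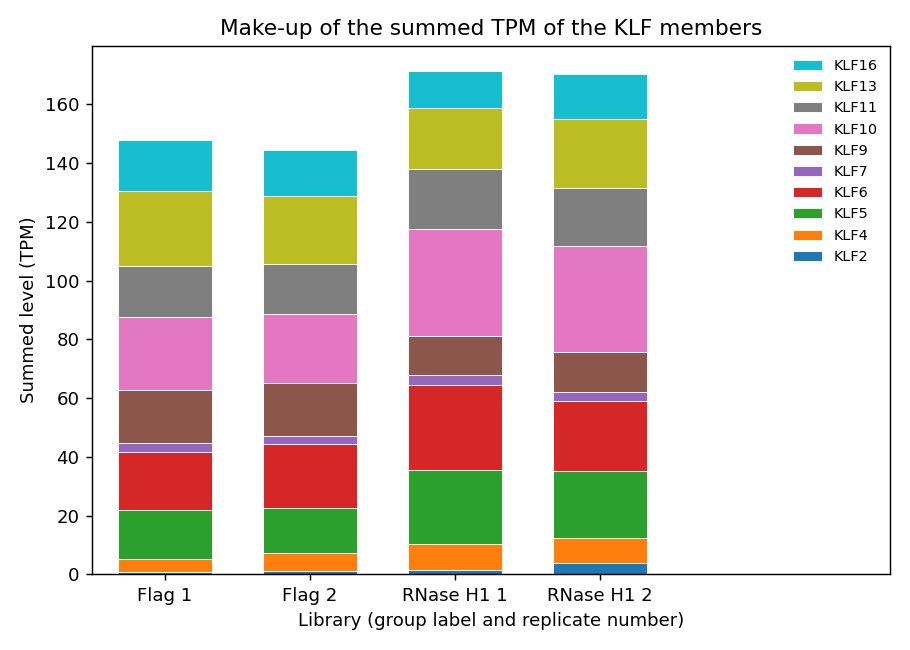
Summed TPM of the 10 KLF genes in each of the 4 libraries, with a coloured segment for each gene. The total was 147.79 and 144.58 TPM in the Flag libraries and 171.33 and 170.27 TPM in the RNase H1 libraries, where the KLF5 and KLF10 segments are taller and the KLF9 segment shorter.

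Of all 15651 tested genes, 4906 were at an unadjusted p under 0.05 (limma). Of the 8 KLF genes outside the 10, 3 were tested and 0 were called (limma), with 1 at an unadjusted p under 0.05. That one was KLF15, a metabolic factor of liver and muscle, with 5.33 and 6.64 TPM with Flag and 3.09 and 4.47 TPM with RNase H1 (log2 difference -0.56 ± 0.19, SE, adjusted p = 0.108). Its groups did not overlap. KLF12 and KLF3, which bind the corepressor CtBP, had differences of -0.24 ± 0.11 and 0.00 ± 0.10 (adjusted p = 0.183 and 0.984). The related SP factors bind the same GC boxes. Of 9 SP genes 7 were tested and 0 called (limma), with 2 at an unadjusted p under 0.05, and their median difference was 0.20. SP3 had 59.24 and 60.01 TPM with Flag and 72.74 and 66.27 TPM with RNase H1 (adjusted p = 0.0789). SP2 and SP9 had differences of 0.40 ± 0.14 and 0.30 ± 0.16 (adjusted p = 0.111 and 0.251).

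Of 14 tested cofactors through which KLF proteins act, 1 was lower and 0 were higher, near the 11.8% called of all tested genes, and the median was -0.06. RBBP7, a histone-binding subunit of SIN3 and other complexes, fell from 425.79 and 437.93 TPM to 361.9 and 363.36 TPM (log2 difference -0.25 ± 0.04, SE, limma adjusted p = 0.0180). The acetyltransferase CREBBP was at 0.24 ± 0.06 (adjusted p = 0.0565) and the corepressor CTBP1 at -0.16 ± 0.06 (adjusted p = 0.110). SIN3A, the scaffold that the KLF9 group binds, was chosen after its values were seen and had 59.35 and 61.83 TPM with Flag and 59.75 and 56.88 TPM with RNase H1.

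The counts for the lists that follow are likewise to be read against the 11.8% called of all tested genes. Their counts at an unadjusted p under 0.05 are to be read against 4906 of 15651 tested genes (limma). Of 12 genes of the MEK5-ERK5-MEF2 pathway, which induces KLF2 and KLF4, and of the CCM complex, which restrains it, 0 were called (limma), with 1 at an unadjusted p under 0.05. That gene was the kinase MAP3K2 (0.26 ± 0.07, SE, adjusted p = 0.0728), and the transcription factors MEF2C and MEF2A had differences of -0.22 ± 0.12 and 0.12 ± 0.08 (adjusted p = 0.273 and 0.337). The median over the 12 was 0.09. Of 10 tested genes of TGF-beta signalling, which induces KLF10 and KLF11, 1 was higher, 0 lower and 9 not called, with a median of 0.19. SKIL, a feedback inhibitor of SMAD proteins, rose from 20.85 and 20.37 TPM to 38.38 and 33.06 TPM (0.76 ± 0.09, SE, limma adjusted p = 0.0116). SMAD4 and the receptor TGFBR1 had differences of 0.20 ± 0.06 and 0.19 ± 0.08 (adjusted p = 0.0910 and 0.160).

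Glucocorticoid signalling, which induces KLF9, had 1 of 6 genes higher, 1 lower and 4 not called, with a median of 0.00. SGK1, a kinase that serum also induces, rose from 10.98 and 9.51 TPM to 27.21 and 26.38 TPM (1.31 ± 0.10, SE, limma adjusted p = 0.00521). TSC22D3, the leucine zipper protein GILZ, fell from 113.22 and 113.42 TPM to 95.41 and 97.81 TPM (-0.23 ± 0.05, limma adjusted p = 0.0354). The receptor gene NR3C1 was at 0.18 ± 0.09 (adjusted p = 0.213). Enzymes that attach ubiquitin to KLF proteins or remove it had 0 of 10 higher, 1 lower and 9 not called, with a median of 0.06. STUB1, a chaperone-linked ligase, fell from 65.33 and 65.02 TPM to 48.15 and 52.45 TPM (-0.37 ± 0.06, limma adjusted p = 0.0246), a call lost after GC correction. The ligases FBXO32 and SIAH1 had differences of 0.36 ± 0.11 and 0.23 ± 0.08 (adjusted p = 0.0816 and 0.115).

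Genes that KLF proteins are reported to regulate had 2 of 13 tested higher, 0 lower and 11 not called, with a median of 0.11. THBD and MAOA reached the minimum of 1 TPM through their RNase H1 libraries alone, so the filter itself favours positive differences in this median. CDKN1A, the cell cycle inhibitor p21 that KLF4 and KLF6 activate, rose from 33.98 and 35.37 TPM to 51.07 and 53.29 TPM (0.58 ± 0.06, SE, limma adjusted p = 0.00990). CDKN1B, the inhibitor p27, rose from 37.78 and 35.99 TPM to 43.65 and 46.11 TPM (0.28 ± 0.07, limma adjusted p = 0.0473), a call lost after GC correction, under quantile normalization and under median-of-ratios scaling. CDH1, the epithelial cadherin, had 2.23 and 2.11 TPM with Flag and 1.13 and 1.23 TPM with RNase H1, a difference that did not pass (-0.54 ± 0.18, adjusted p = 0.105). Partners of KLF4 in pluripotent cells had 0 of 5 tested called (limma), with 1 at an unadjusted p under 0.05 and a median of 0.04. That gene was TBX3 (0.22 ± 0.06, adjusted p = 0.0743), and TFCP2L1 and SALL4 had differences of 0.09 ± 0.13 and -0.13 ± 0.22 (adjusted p = 0.680 and 0.715). NANOG and LIN28A, also chosen after their values were seen, did not exceed 0.11 TPM in any library.

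The calls of KLF4, KLF5, KLF9 and KLF10 needed all 4 libraries and also depended on the model. With all 4 libraries, they were lost without the filter on low values. They were likewise lost when variances were modelled without a trend over expression level. Nearly all calls over the tested genes were lost under these 2 settings too. Leaving out any 1 library lost all of these calls, as it lost nearly all calls over the tested genes. Each such fit leaves a lone library that is assumed to vary like the other group. None of the related genes described above as rising or falling was called in these fits. The sizes moved little for KLF10, from 0.53 to 0.59, and for KLF9, from -0.40 to -0.38. For KLF5 they lay between 0.49 and 0.63 and for KLF4 between 0.45 and 0.83.

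**Figure D4:**
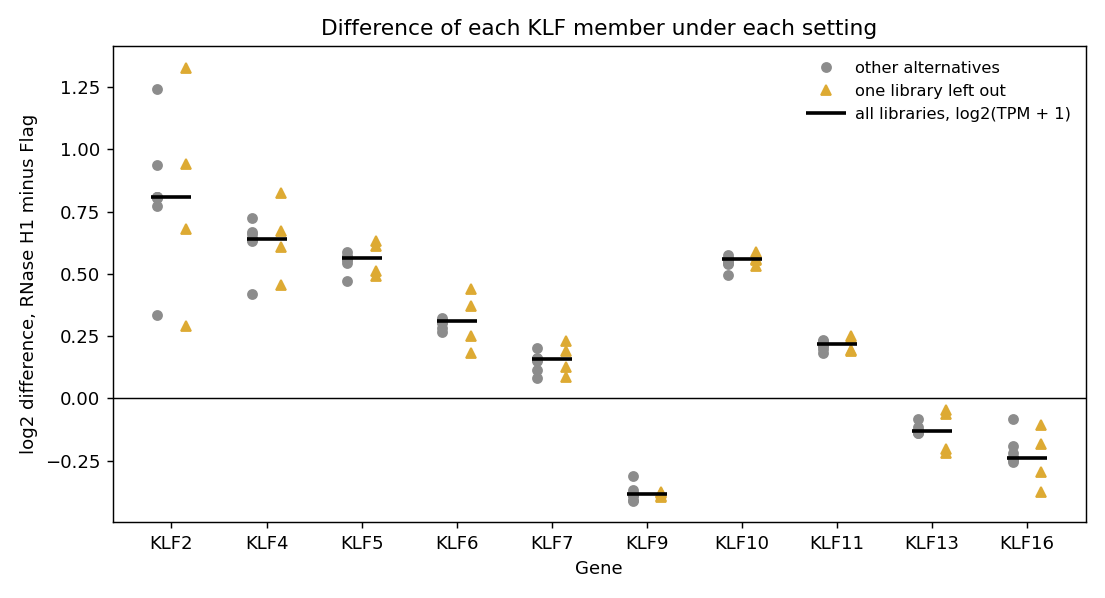
Log2 difference of each KLF gene between RNase H1 and Flag with all 4 libraries (black bar), with 1 library left out (triangles) and under the other alternatives (circles). The values of KLF9 and KLF10 lie close together, those of KLF2 spread from 0.29 to 1.33, and no gene changes sign.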

How the data were processed

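The data are 4 RNA-seq libraries of HEK293T cells, 2 with the label Flag and 2 with RNase H1. The authors deposited TPM values per gene, and the submitters' processing notes name STAR and hg38. The sources used here do not give versions, the quantification program, the annotation or the strand setting. Columns summed to between 998901 and 998955 TPM, and depth is unknown. Log2(TPM + 1) values of the 15651 genes that averaged 1 TPM or more were compared with limma 3.58.1 in R 4.3.3 (group term, intensity trend, two-sided), with Benjamini-Hochberg adjustment over all of them. The fit was tested on 1 simulated data set, in which genes of the same level were given the same spread. There, 18 of 214 calls were false, and 96% of 100 genes changed by 0.5 were called. As real genes of 1 level may differ in spread, this cannot show how many calls are false here. All 10 members were named by the rule, and from each list of related genes every called gene and otherwise the smallest p up to 3. Members and lists were chosen with earlier results of these data known. Gene models came from GENCODE release 29 (GRCh38, with GC content for 97.8% of tested genes). Promoter windows came from RefSeq on GRCh38.p14 and cover 9 of the 10 members. Windows on chromosome 8, where KLF10 lies, were not used. Alternatives were other pseudocounts, filters, scalings and variance models, a replicate block, GC correction by a spline with 4 degrees of freedom and leaving out each library. Figures used matplotlib 3.10.9 in Python 3.11.15.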

Additional observations from a re-analysis of the deposited data

How the results depend on the processing

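All 138 values of the 10 members under the alternatives kept the sign of the main difference. Without a filter on low values limma called 0 genes (5655 at an unadjusted p under 0.05) and 0 members (5 at an unadjusted p under 0.05). With variances modelled without a trend it called 1 gene and 0 members (4337 and 5 at an unadjusted p under 0.05). Under both settings the lists of cofactors, ubiquitin enzymes, TGF-beta genes, glucocorticoid genes and target genes had 0 calls. The cause was not tested. With a minimum mean of 5 TPM, 2397 of 11245 tested genes (21.3%) and 4 of 8 tested members were called, and 2 cofactors (RBBP7 and CREBBP). After GC correction 0 ubiquitin enzymes and 1 target gene were called, and under quantile normalization and median-of-ratios scaling 1 target gene each.

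Leaving out 1 library at a time gave 0 to 15 genes called and 0 members in each case, and 0 calls in each of those 5 lists. For the members called with all libraries, the differences then ranged from 0.45 to 0.83 (KLF4), 0.49 to 0.63 (KLF5), -0.40 to -0.38 (KLF9) and 0.53 to 0.59 (KLF10), with adjusted p between 0.0920 and 0.219.

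With the replicate number as a block, limma called 2442 genes (15.6% of those tested) and the same count of 4 members. It also called 1 other KLF gene (KLF15, adjusted p = 0.0465) and 2 cofactors (RBBP7 and CREBBP). It changed no other call among the genes named. The labels do not say whether samples with the same number were handled together. The differences between replicates correlated at 0.03 over genes in the 2 groups, which cannot decide this, as such differences may be mostly noise. TPM holds no depth, so what depth limits could not be examined.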

Other observations

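Noncoding rows named after KLF genes were scarce. KLF2-DT, the divergent transcript beside KLF2, was listed at 0 in all 4 libraries. KLF7-IT1, an intronic transcript of KLF7, had 0.6 and 0.21 TPM with Flag and was listed at 0 in both RNase H1 libraries. KLF3-AS1 had 0.22 and 0.23 TPM with Flag and 0.17 and 0.16 TPM with RNase H1.

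Genes with the most similar pattern over the 4 libraries were sought among those of at least 5 TPM, by the root mean square difference of log2(TPM + 1) deviations from each gene's mean. Nearest to KLF9, among 11244 genes, were the phosphatase gene PPP5C (0.00566), FSD1 (0.00619) and ARHGEF10 (0.0108). Nearest to KLF2, among 11245 genes, were TBL1XR1 (0.152), ENSG00000279423 (0.194) and ENSG00000285133 (0.230). TBL1XR1, a corepressor subunit, had 46.32 and 42.11 TPM with Flag and 50.24 and 102.51 TPM with RNase H1, so like KLF2 it was high in RNase H1 replicate 2. With 4 libraries such likeness is a description only.

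Among the windows not printed, that of the second KLF11 start held a full CRE (TGACGTCA), which 1.63% of all windows hold, and overlapped exons in 46 of its 250 bases. A window of KLF7 held a CArG box, which 1.16% of all windows hold.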
